A study of Mus musculus with 2 samples.

Results

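Strong two-cell-like cells with few endoderm transcripts are embryonic stem cells of the MERVL-GFP positive library in which genes of the 2-cell embryo took a high share of the RNA. They were chosen by their own transcript counts. A cell needed at least 10000 UMIs (counts read here as single RNA molecules). At least 0.2% of them had to come from Zscan4a to Zscan4f, Sp110, Zfp352, Tmem92, AF067061 and the Usp17l, Tdpoz and Tcstv genes, which together give the two-cell share of a cell. Less than 0.03% could come from Gata6, Sox17, Pdgfra and Dab2, the endoderm share. This selected 558 of the 4603 cells of the positive library, or 12.1% (exact binomial interval 11.2 to 13.1), out of 8435 cells in the series. Among the 4403 positive-library cells with enough UMIs the share was 12.7% (11.7 to 13.7). In the MERVL-GFP negative library 0 of 3824 cells met the same rule, which allows a share of up to 0.0785%, and the highest two-cell share of any of its cells was 0.117%.

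The cells come from a mouse embryonic stem cell line with a GFP reporter driven by the MERVL promoter, which marks the two-cell-like state, and with H2B-mIFP, a nuclear label for tracking cells. Nothing in the labels gives the libraries different constructs. The study set out to trace what becomes of two-cell-like cells, and these data hold 1 reporter-positive and 1 reporter-negative library. No treatment, time or number of independent cultures is given. With 1 library per group there is no replicate check, no test between groups was made, and every interval is a 95% interval that covers counting error only.

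In mouse culture a small fraction of embryonic stem cells passes through a state that resembles the embryo at the start of its own transcription. The transcription factor Dux, encoded in a repeat array that includes Duxf3, activates MERVL retroviral elements and a set of genes next to them. Zscan4, a family of zinc finger proteins tied to telomere upkeep, is the best-known marker of the state. Many of the genes involved lie in tandem arrays of near-identical copies, and proteins such as OCT4 are reported to decline while the state lasts.

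Promoter sequences of 6 genes that were high in these cells are given first, because 3 of them share a long run of bases just before the start of transcription. They were chosen after the gene levels were seen, as the most abundant Zscan4 members with an entry, the rule gene Sp110, and 3 abundant or extreme genes outside the rule. Each line gives the 120 bases before the RefSeq start in build GRCm38.p6, 5′ to 3′ on the gene's strand. Capitals mark TATAAAA in the Zscan4 genes, ATATAAG in Gm21761, and the 45 bases that are identical in Sp110, Gm4340 and Eif4a3l1. The windows are Zscan4c chr7:11005625-11005744 (+), Zscan4d chr7:11166149-11166268 (-), Sp110 chr1:85603892-85604011 (-, 1 of 2 starts in the table), Gm4340 chr10:104193922-104194041 (+), Eif4a3l1 chr6:136327419-136327538 (+) and Gm21761 chr13:119913469-119913588 (-).
Zscan4c: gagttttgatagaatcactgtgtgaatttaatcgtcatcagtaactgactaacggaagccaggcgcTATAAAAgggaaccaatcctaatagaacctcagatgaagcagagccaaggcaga
Zscan4d: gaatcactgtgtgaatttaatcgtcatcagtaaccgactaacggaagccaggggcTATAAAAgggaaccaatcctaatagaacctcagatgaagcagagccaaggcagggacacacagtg
Sp110: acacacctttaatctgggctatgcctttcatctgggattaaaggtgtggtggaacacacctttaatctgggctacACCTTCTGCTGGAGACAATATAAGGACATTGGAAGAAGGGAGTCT
Gm4340: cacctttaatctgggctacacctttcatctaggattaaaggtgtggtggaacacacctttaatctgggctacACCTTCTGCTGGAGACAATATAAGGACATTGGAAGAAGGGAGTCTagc
Eif4a3l1: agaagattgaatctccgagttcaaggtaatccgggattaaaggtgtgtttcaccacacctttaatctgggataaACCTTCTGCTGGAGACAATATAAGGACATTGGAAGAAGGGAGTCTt
Gm21761: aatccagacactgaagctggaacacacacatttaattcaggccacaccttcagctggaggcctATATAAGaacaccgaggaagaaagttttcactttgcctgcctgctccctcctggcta

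Over these windows Sp110 and Gm4340, which lie on different chromosomes, were 92.7% identical. Sp110 and Eif4a3l1 were 80.2% identical. The neighbours Zscan4c and Zscan4d matched at 107 of 131 aligned columns (81.7%). Their windows are offset along nearly the same sequence, and the columns count the unmatched ends, so that value understates their likeness. Gm21761 shared 46.2% to 48.6% of aligned positions with each of the other 5 windows. The 45-base run stood in the 250 bases before a start, on either strand, in 8 of 6614 genes that had a promoter entry and could meet the size rule explained below (0.121%), and in 17 of 27025 genes of the whole promoter table (0.0629%). Of the 8, 6 met that rule in the upward direction (Sp110, Gm4340, Eif4a3l1, Pramel17, Gm12790 and Gm33248). The others were Arih2, with 101 CPM in the strong two-cell-like cells and 67.1 CPM in the comparison cells, and Sgk1, with 98.1 and 212 CPM. A run of 13 letters, CACACCTTTAATC, repeated in direct and inverted copies in the lower-case stretch before the 45 bases, was the longest that those 3 windows share with that of Zfp352. It was found on either strand in 14 of the 6614 genes (0.212%), in 47 of the 27025 (0.174%) and in 0 of 16 lower genes. Of the 14, 12 were higher by the size rule, including the rule genes Sp110, Tdpoz8 and Zfp352, and the exceptions were Sgk1 and Zbed3. ATATAAG, which lies inside the 45-base run, occurred in 19 of 223 higher genes outside the rule with a promoter entry (8.52%) and in 1 of 16 lower genes, against 1.71% of the 6614 and 2.69% of the whole table. TATAAAA occurred in 7 of 17 rule genes and in 13 of the 223 (5.83%) and 1 of 16 lower genes, against 2.78% of the 6614 and 5.85% of the whole table. All letters were chosen after reading promoters of higher genes, the windows were not compared with a repeat annotation, and a match describes letters and not a site of binding.

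The members of the rule varied widely. Their two-cell share ran from 0.200193% to 2.97%, with a median of 0.432% and quartiles of 0.300% and 0.649%. The nearest cell left out, just under the lowest member, had 0.199676%. There were 78 members below 0.25%, and 163 cells between 0.15% and 0.2%, so the threshold cuts a continuous range. For the endoderm share the nearest values on either side of the limit were 0.0291% and 0.0307%, and 253 of the 558 cells had no UMI of the 4 endoderm genes. These cells were compared with 1237 comparison cells of the same library, which had a two-cell share below 0.01% under the same endoderm limit. They were set beside 715 intermediate cells (0.05% to below 0.2%), 56 cells that passed the two-cell threshold but not the endoderm limit, and 3589 negative-library cells that met the comparison rule. The libraries share 3 barcodes, none of them in a strong two-cell-like cell and 2 in comparison cells.

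Strong two-cell-like cells held less RNA signal than their comparison. The positive library had 138364094 UMIs and the negative library 156406894. The median strong cell had 19480.5 UMIs, the median comparison cell 33518 and the median negative-library cell 39094. After every cell was thinned at random to 10000 UMIs, the median number of detected genes was 3096, against 3182 and 2988. The median mitochondrial share was 3.24%, against 2.37% and 1.61%. Levels below are in CPM, the UMIs summed over a group of cells and scaled to the same total for every group, so they describe composition. Since the mean cell held 1.62 times fewer UMIs than a comparison cell, a gene at equal CPM had 1.62 times fewer UMIs per cell.

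The genes of the rule are given first, as a description of what the selection held. Zscan4d (ENSMUSG00000090714, chr7:11161374-11166159) stood at 787 CPM (Poisson interval 771 to 803), against 7.05 in comparison cells, 191 in intermediate cells and 0.0819 in the negative library. Thinned to 10000 UMIs, 85.1% of strong two-cell-like cells had a Zscan4d UMI, against 5.90% of comparison cells and 0.0836% of negative-library cells. Its count per thinned cell ran from 0 to 79, with a median of 5. Zscan4a followed at 631 CPM and Zscan4c at 530, while Zscan4e (126), Zscan4f (49.4) and Zscan4b (48.0) were lower. Among the Usp17l genes, which encode deubiquitinase-like proteins, Usp17la stood at 505 CPM and Usp17lc at 487. Sp110, a nuclear body protein of the Sp100 family, stood at 468 CPM, Tcstv3 at 423, AF067061 at 202, Tmem92 at 155, Zfp352 at 96.5 and Tdpoz8 at 71.6. Zfp352 had a UMI in 29.2% of thinned cells and Sp110 in 72.6%, so single rule genes were absent from many of the selected cells at this depth. Of the 28 rule genes in the table, 19 reached 50 UMIs over both groups and 17 met the size rule. The copies within each family are nearly identical, so the level of one copy against another is uncertain.

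Within the selection the share taken by each family varied between cells. The Zscan4 genes took from 0% to 1.39% of a cell's UMIs, with a median of 0.162%, and 6 cells had none. The other rule genes took 0.00424% to 2.04%, with a median of 0.241%. Over the 558 cells the Spearman correlation of these shares was -0.18, but both enter one sum with a floor, which pushes the value down. Against genes outside the rule, the Zscan4 share had a correlation of 0.50 with the share of the Eif1ad copies and 0.21 with that of Gm21761, Gm21818 and Gm20767. For the other rule genes the values were 0.18 with the Eif1ad copies and 0.49 with the Gm21761 group, some of which neighbour AF067061 and Tcstv3 on chromosome 13. For the Usp17l genes alone they were 0.16 and 0.18. All of these use values of the rule in cells selected on their sum, are shares of the same cell totals in 1 library, and are given as descriptions. The plot of the Zscan4 share against the share of the other rule genes shows cells at both ends.

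**Figure D1:**
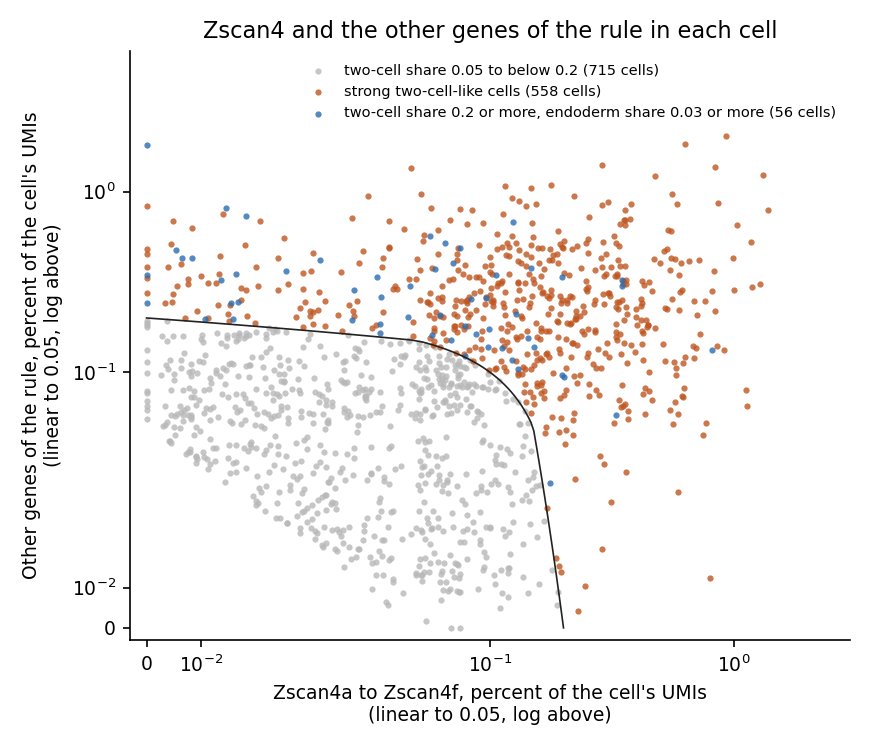
Percent of each cell's UMIs from Zscan4a to Zscan4f (x axis) and from the other genes of the rule (y axis), both linear to 0.05 and logarithmic above. Each point is a cell: 558 strong two-cell-like cells, 715 intermediate cells and 56 cells above the endoderm limit. The curve marks a sum of 0.2%. Strong cells range from almost pure Zscan4 at the lower right to cells with 0 Zscan4 UMIs at the left edge.

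The reporter transcript was not part of the rule. GFP stood at 494 CPM in strong two-cell-like cells (482 to 507, 5828 UMIs) and at 79.1 CPM in comparison cells (76.5 to 81.9), a ratio of 6.25 (5.99 to 6.52). It was at 383 CPM in intermediate cells, 533 CPM in the cells above the endoderm limit and 0.376 CPM in the negative library. A GFP UMI was found in 91.2% of thinned strong cells (exact binomial interval 88.6 to 93.4), 37.3% of comparison cells (34.6 to 40.0) and 0.279% of negative-library cells. Without thinning the first 2 shares were 95.5% and 61.5%, and at 5000 UMIs they were 78.0% and 25.9%. Among the strong cells GFP ran from 0% to 0.270% of UMIs, with a median of 0.0387%, and 25 cells had none. Its correlation with the two-cell share over the 558 cells was 0.06 (Spearman), a description within cells of a reporter-positive library already selected on the two-cell share.

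Across the transcriptome, 8458 genes had at least 10 CPM in strong or comparison cells and at least 50 UMIs over both. Of these, 451 (5.33%) were at least 4 times higher in strong two-cell-like cells, by the ratio of CPM + 1 that forms the size rule, and 27 (0.319%) were at least 4 times lower. The 17 rule genes are among the 451, which leaves 434, GFP included. The median of all tested genes was -0.14 on the log2 scale, with quartiles of -0.52 and 0.34. When UMIs per cell replaced CPM, a scale chosen after seeing the data, 301 genes were higher and 227 lower. The smaller totals of the strong cells then count as a difference. The added 1 and the minimum level of the size rule also act on that scale. By the plain ratio, with nothing added, 362 of the 434 genes outside the rule also had at least 4 times more UMIs per cell. The rest had at least 2 times more, which the ratio of 4 and the difference in depth fix. Together the 434 genes took 9.48% of the UMIs of strong cells, against 0.758% in comparison cells and 0.349% in the negative library. The rule genes themselves took only 0.497%. In the negative library 287 of the 434 were below 1 CPM, and 68 of them had 0 UMIs. For those 287 the level in comparison cells was at most 21.5% of that in strong cells, with a median of 2.71% and quartiles of 1.76% and 5.24%. The ratio of 4 in the size rule caps this percentage. Whether free RNA in the droplets gave part of that low level was not tested.

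**Figure D2:**
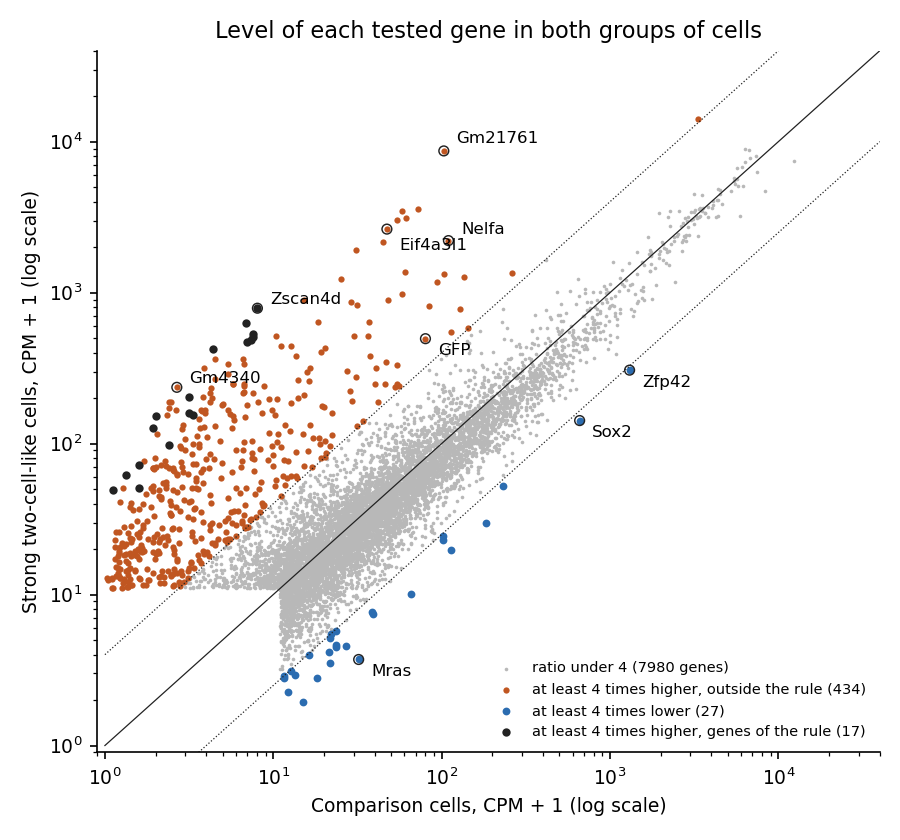
Level of the 8458 tested genes as CPM + 1 in comparison cells (x axis) and strong two-cell-like cells (y axis), both on log scales. Dotted lines mark a ratio of 4 and the solid line equality. Gm21761 is labelled among the 434 higher genes outside the rule, and the 27 lower genes hold Sox2 and Zfp42 at their upper end.

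Many of the abundant higher genes are little-characterised genes in arrays. Gm21761 (ENSMUSG00000096175, chr13:119912095-119929272) reached 8680 CPM, against 102 in comparison cells and 0.0888 in the negative library, a ratio of 85.1 (82.5 to 87.7). It had a UMI in 99.5% of thinned strong cells, 62.2% of comparison cells and 0.223% of negative-library cells. Its neighbours Gm21818 (3471 against 57.0 CPM), Gm20767 (3015 against 53.1 CPM) and B020031M17Rik (1909 against 30.0 CPM) followed it. Among genes outside the rule, the largest ratio of CPM + 1 was that of Gm4340, at 235 CPM against 1.67. It had 0 UMIs in the negative library and a CPM ratio of 140 (111 to 180). Gm21761 was second. Next came Gm44739 (317 against 2.85 CPM), Eif1ad4 (360 against 3.51 CPM), Gm5117 (186 against 1.39 CPM), Eif1ad11 (188 against 1.49 CPM) and Gm5660 (170 against 1.39 CPM). Gm48388, Gm21037, Eif1ad14, BC147527, Eif1ad3 and Eif1ad18 complete the 15 with the largest ratios, at log2 ratios of 5.83 to 6.05. Several are near-identical copies of one another, so single values are uncertain.

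A minority of the higher genes lie next to each other, by position in GENCODE M21. Taking genes no more than 500000 bases apart, 9 runs of at least 5 higher genes held 83 of the 448 higher genes with a position (18.5%). The runs were defined by the higher genes, and most of those passed the limit of 10 CPM only through the strong cells. The counts are therefore descriptions. The Eif1ad array at chr12:87480108-88324026, copies related to the translation initiation factor eIF1A, had 15 of 15 tested genes higher, out of 79 in the interval. Summed, the array stood at 12627 CPM, against 235 in comparison cells and 2.19 in the negative library. It took 1.26% of all UMIs of the strong cells, with Eif1ad8 (3561 against 71.4 CPM) and Eif1ad15 (3099 against 60.3 CPM) as the most abundant. The array at chr13:119488039-120318178, with Gm21761, Tcstv3 and AF067061, had 14 of 16 tested genes higher, out of 35 in the interval. This array took 1.84% of UMIs, at 18446 CPM against 264. The Zscan4 array at chr7:10794242-11614112 had 10 of 11 tested genes higher, 6 of them rule genes, out of 50 in the interval. The run at chr1:84369839-85645037 holds Sp110 and Sp140, with 8 of 10 tested genes higher, out of 34 in the interval. Sp140 stood at 241 CPM against 7.76. Pseudogenes of any class made up 16.5% of the 431 annotated higher genes outside the rule, against 2.23% of tested genes, and long intergenic noncoding RNAs 11.8% against 1.49%. Only 88 of the 434 higher genes reached 10 CPM in comparison cells, so most were tested only because they were high in strong cells. These contrasts are therefore partly built in.

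Two-cell genes outside the rule were higher as a group. Of 24 with at least 50 UMIs, 23 were at least 2 times higher and all of those at least 4 times, and none was 2 times lower. For comparison, 1404 of the 14557 genes with 50 UMIs were at least 2 times higher (9.64%) and 1077 at least 2 times lower (7.4%). The median log2 ratio was 5.54, against -0.14 over all genes. The list was written with earlier results of these data known, and its genes are co-expressed with those of the rule, so the count describes the selection. Eif4a3l1 (chr6:136327539-136329983), related to an RNA helicase of the exon junction complex, stood at 2633 CPM against 46.3 and 0.102 in the negative library. Ubtfl1 (126 against 2.66 CPM), Lmx1a (378 against 12.6 CPM) and Spz1 (66.1 against 1.53 CPM) were also higher. The exception was E330034L11Rik, at a log2 ratio of -0.12. Of the Pramel genes, preferentially active in germ cells and early embryos, 13 of 15 were at least 2 times higher, with Pramel19 at 247 against 4.79 CPM and Pramel18 at 165 against 2.76 CPM, and Pramel13 was at -0.29. Of the Platr noncoding RNAs, 2 of 19 were at least 2 times higher and 8 lower. Their summed level was 1330 against 324 CPM, and Platr31 alone was at 1169 CPM against 92.9 and 0.266 in the negative library.

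Abundant genes outside these arrays were also among the 434, and the following were picked after their values were seen. Zfp560, a zinc finger gene, stood at 1370 CPM against 59.9 and 24.4 in the negative library. C1d, a cofactor of the nuclear exosome, was at 1337 against 102 CPM. Glrx2, a mitochondrial glutaredoxin, was at 1271 against 135 CPM. Genes of splicing factors appeared here too: Cwc22 at 973 against 57.2 CPM, Aqr at 779 against 128 CPM and Ppig at 1351 against 260 CPM. Each of these 3 overlaps another annotated gene, and how reads in such overlaps were counted is not given. A list of 20 core splicing genes did not follow them, with a median of -0.36 and only Snrpc above a ratio of 2 (578 against 242 CPM). A long noncoding gene known only as ENSMUSG00000115801 was the most abundant of the higher genes, at 14222 CPM against 3328 in comparison cells and 1602 in the negative library.

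Among known activators of the programme, 4 of 7 were at least 2 times higher and 1 lower. Duxf3, the Dux gene of the table, stood at 9.75 CPM against 0.495 in comparison cells and 0.0205 in the negative library, a ratio of 19.7 (12.3 to 33.0), and was found in 8.78% of thinned strong cells. Nelfa, a subunit of the negative elongation factor and a maternal driver of the state, was at 2210 CPM against 109 and 47.9, though it overlaps other annotated genes on both strands. Dppa3, a maternal factor, was at 130 against 30.3 CPM, and Dppa2, an activator of Dux, at 461 against 144 CPM. Its partner Dppa4 was at 62.3 against 73.1 CPM, and Trp53, reported to activate Dux after DNA damage, at 124 against 284 CPM. Of 24 repressors, 1 was higher and 3 lower by a ratio of 2, at a median of -0.30. These were Ythdc1 (400 against 145 CPM), and Mga (38.2 against 100 CPM), Myc (6.28 against 17.4 CPM) and Sumo2 (509 against 1106 CPM). Trim28, Setdb1, Kdm1a, Chaf1a and the remaining repressors were within a ratio of 2.

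**Figure D3:**
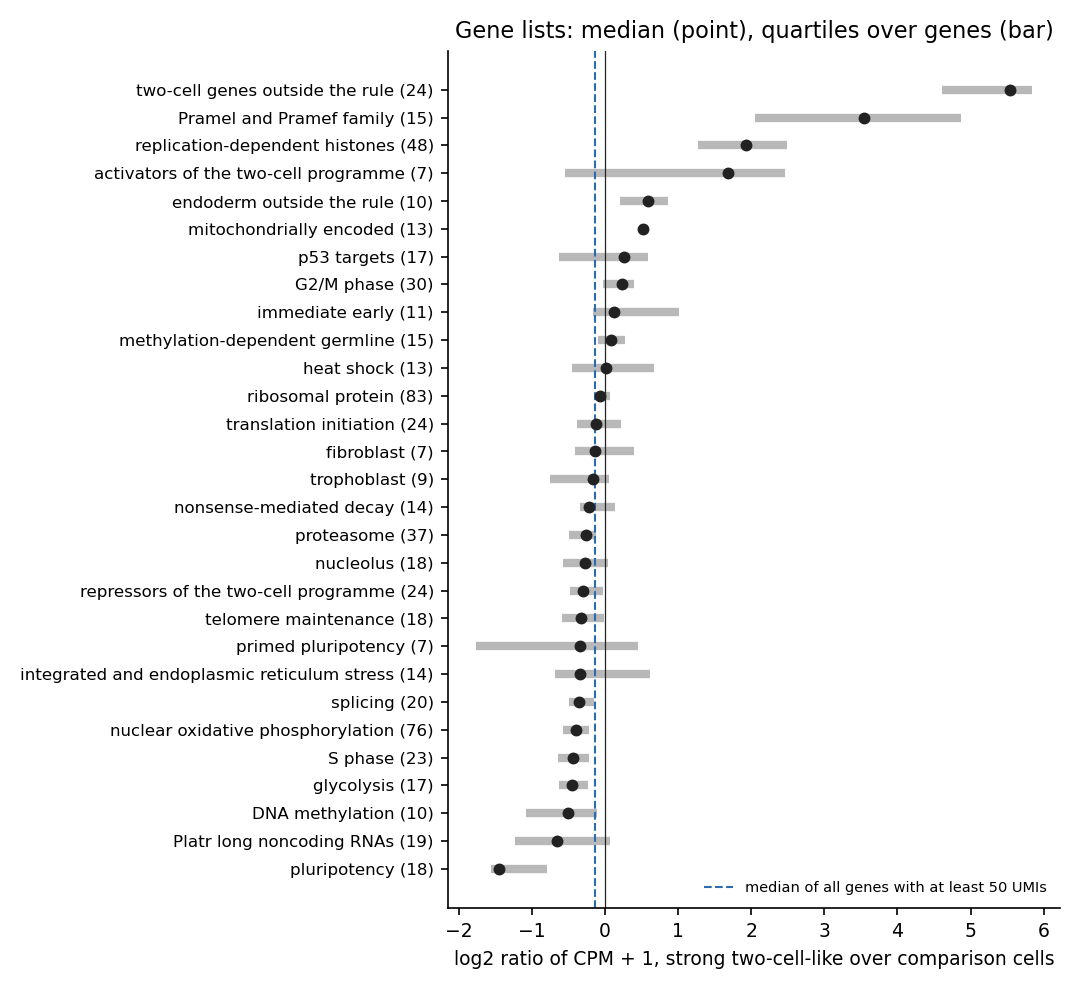
Median log2 ratio of CPM + 1 in strong two-cell-like over comparison cells (points) with quartiles over genes (bars) for each gene list, with the number of genes with at least 50 UMIs in parentheses. The dashed line is the median of all such genes, -0.14. Two-cell genes outside the rule (5.54) and pluripotency genes (-1.45) lie at the ends.

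Pluripotency genes were lower. Of 18, 17 had a log2 ratio below 0, 11 were at least 2 times lower and none 2 times higher, at a median of -1.45. Sox2 (ENSMUSG00000074637), a core pluripotency factor whose gene is overlapped by another on its strand, stood at 141 CPM (134 to 148) against 659 (651 to 667) in comparison cells, 291 in intermediate cells and 556 in the negative library. A Sox2 UMI was found in 61.1% of thinned strong cells, 96.4% of comparison cells and 98.6% of negative-library cells. Zfp42 (REX1), a marker of the naive state, was at 306 against 1306 and 1298 CPM, with a UMI in 86.6% of strong cells. Utf1 (60.9 against 230 CPM), Nr0b1 (28.6 against 97.8 CPM), Klf4 (143 against 423 CPM) and Esrrb (20.5 against 57.9 CPM) were lower by ratios near or above 3. The other core factors differed less, with Pou5f1 (OCT4) at 173 against 333 CPM and Nanog at 273 against 472 CPM. Nanog at 273 CPM was nonetheless above the negative library's 202. Sall4 was the exception, at 264 against 178 CPM. The whole list took a median of 0.849% of UMIs per strong cell (0.190% to 4.58%), against 1.85% in comparison cells. The interquartile ranges, 0.630% to 1.19% and 1.49% to 2.27%, did not overlap. The same held for other lists, among them nuclear oxidative phosphorylation, telomere maintenance and DNA methylation. Most of the pluripotency share came from Dppa5a, which held 12443 of the list's 19028 CPM in comparison cells. The list summed to 10136.5 CPM in strong cells, and Dppa5a stood at 7958 and 6533 CPM below and above a two-cell share of 0.5%. Per UMIs per cell the list's median was -2.09.

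The 15 genes with the lowest ratios were led by Mras, a Ras-related GTPase, at 2.71 CPM against 31.1 and 55.8 in the negative library. Gm11627 (0.933 against 14.1 CPM), Msc (1.78 against 17.1 CPM), Cobl (9.16 against 64.9 CPM), Arid5b (29.0 against 182 CPM) and Mymx (18.7 against 113 CPM) followed. Foxd3, a repressor needed for stem cell maintenance, was at 6.45 against 38.2 CPM, and Socs2, a feedback inhibitor of cytokine signalling, at 6.70 against 37.4 CPM. Meis2 was at 3.14 against 20.5 CPM, and 1190005I06Rik, Fam81a, B930086L07Rik, G0s2 and Gm37258 had log2 ratios of -2.61 to -2.34. The 10 lowest genes with at least 100 CPM in comparison cells were Arid5b, Mymx, Sox2, Tet2, Anp32a, Zfp42, Epha4, Utf1, Gm49089 and Txnl4a. In 9 of them the level in strong cells was also below that of the negative library, while Gm49089 was at 46.6 CPM against 169 in comparison cells and 12.8 in the negative library. The metallothionein genes Mt1 (71.4 against 239 CPM) and Mt2 (62.4 against 164 CPM), chosen after their values were seen, were lower as well.

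Of the DNA methylation genes, the Tet dioxygenases were lower: Tet2 at 21.97 against 101 CPM, Tet1 at 85.4 against 259 CPM and Tet3 at 2.71 against 7.66 CPM. The de novo methyltransferases Dnmt3a, Dnmt3b and Dnmt3l had log2 ratios of -0.01, -0.04 and -0.02, and the maintenance enzyme Dnmt1 -0.42. No gene of this list was above 0. Of 15 germline genes that DNA methylation represses, 1 was at least 2 times higher, Tex19.1 at 161 against 69.6 CPM, and the median was 0.09.

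Replication-dependent histone genes were higher, a list written after their values were seen. Of 48 with at least 50 UMIs, 39 were at least 2 times higher, none 2 times lower and 21 met the size rule. The median was 1.94, with quartiles of 1.27 and 2.48. H3c3 stood at 549 against 113 CPM, H4c9 at 207 against 14.2 CPM and H3c1 at 177 against 18.4 CPM. Summed, the genes were at 2438 CPM in strong cells, 609 in comparison cells, 1435 in intermediate cells and 622 in the negative library. Runs on chromosome 13 at chr13:23535422-23762386 and chr13:21717659-22043676 had 12 of 25 and 9 of 15 tested genes higher by the size rule. The higher genes were all histone genes of the list but Gm11281. Most histone mRNAs of this class end without a poly(A) tail, and how the libraries captured them is not given. The S phase list did not share the difference, at a median of -0.44 with Ung (27.5 against 85.0 CPM) and Gins2 (30.8 against 77.5 CPM) lower and Ccne2 (30.0 against 9.92 CPM) higher. The G2/M list was at 0.24, with only Aurka above a ratio of 2. Per UMIs per cell the histone median was 1.28 and the G2/M median -0.46.

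**Figure D4:**
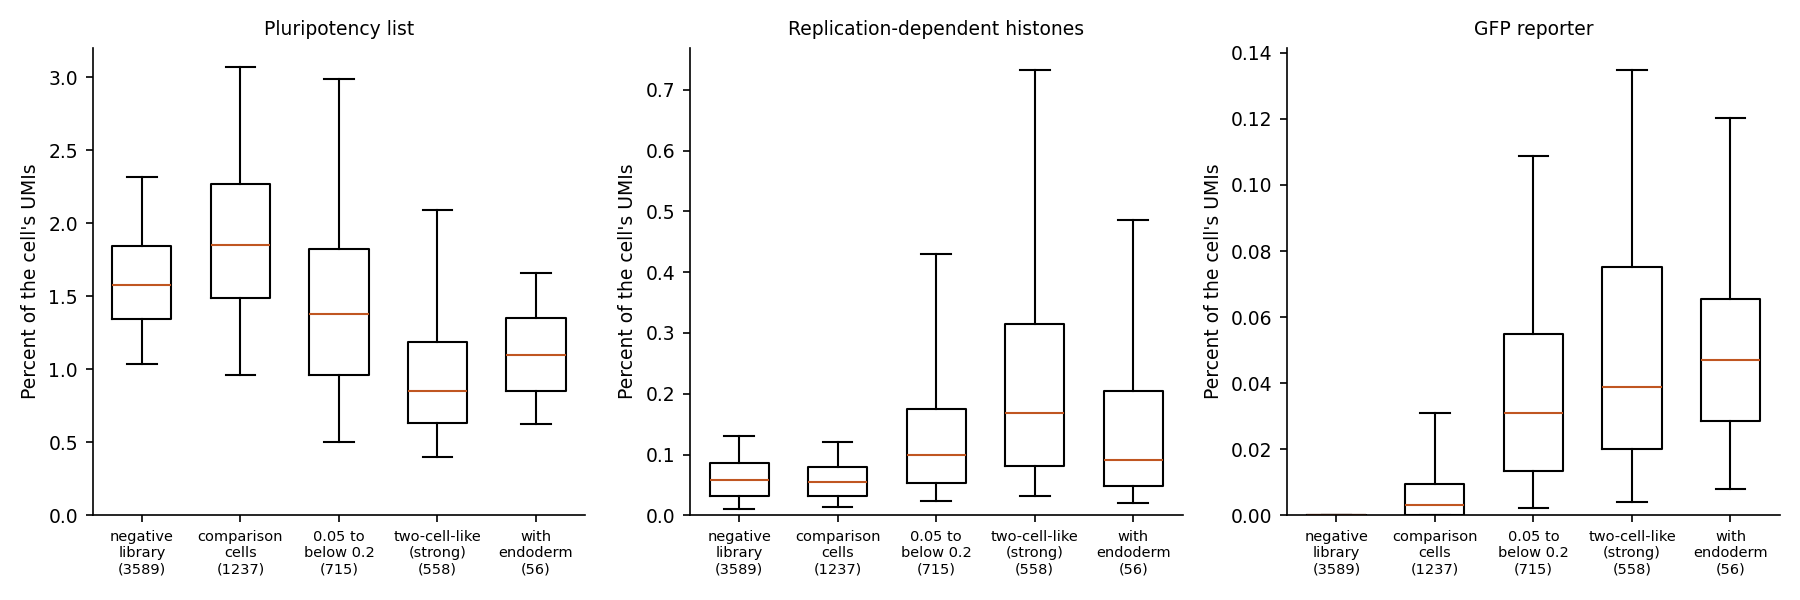
Percent of each cell's UMIs from the pluripotency list, the replication-dependent histones and GFP in 5 groups of cells, with the number of cells in parentheses. Boxes give the quartiles, the coloured line the median and the whiskers the 5th and 95th percentiles. Strong two-cell-like cells have the lowest median pluripotency share (0.849%) and the highest median histone share (0.168%). In strong and comparison cells Dppa5a makes up most of the pluripotency share.

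Stress genes were mixed. Over all genes with 50 UMIs, 9.64% were at least 2 times higher and 7.4% at least 2 times lower. In the heat shock list 3 of 13 were at least 2 times higher and 1 lower, with Hspa1a at 47.1 against 1.70 CPM and Hspa1b at 24.8 against 2.29 CPM, while the median was 0.01. In the endoplasmic reticulum and integrated stress list 3 of 14 were higher and 2 lower: Dnajb9, a chaperone cofactor, was at 158 against 21.2 CPM, and Xbp1, a factor that activates such genes, at 10.5 against 35.3 CPM. Jun was at 108 against 17.7 CPM, and 3 of 11 immediate early genes were 2 times higher. Of 17 p53 targets 2 were higher, Btg2 (153 against 48.3 CPM) and Pmaip1 (61.2 against 17.7 CPM), and 1 lower, Bbc3. These p53 counts are near the shares of all genes. All 13 mitochondrially encoded genes were above 0, at a median of 0.52, but per UMIs per cell the median was -0.17. The 76 nuclear genes of oxidative phosphorylation were at -0.39, glycolysis at -0.44, telomere maintenance at -0.33, the nucleolus at -0.27, the proteasome at -0.26, nonsense-mediated decay at -0.22, translation initiation at -0.11 and ribosomal proteins at -0.06, against -0.14 for all genes.

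Markers of other lineages were examined next. The 4 endoderm genes of the rule took a mean of 0.00498% of UMIs per strong cell and 0.00210% per comparison cell. Both groups were limited to below 0.03%. The endoderm list outside the rule summed to 565 CPM in strong cells, 389 in comparison cells, 195 in the negative library and 4295 in the cells above the endoderm limit. Per cell, however, its median share of UMIs was 0.0360% in strong cells and 0.0358% in comparison cells, with upper quartiles of 0.0542% and 0.0475%, so the typical strong cell did not show the difference in the sum. Of its 10 genes with 50 UMIs 9 had a log2 ratio above 0, and only Lama1 (38.7 against 16.2 CPM) exceeded a ratio of 2, a share near the 9.64% of all genes. The median was 0.60 under the endoderm limit, which both groups share, and -0.32 with no limit on either group. The trophoblast list summed to 85.7 against 120 CPM and 74.2 in the negative library, with Prl3d1 and Tpbpa at 0 UMIs, and the fibroblast list to 366 against 516 CPM, with Postn, Lum and Acta2 at 0 UMIs. Of the primed pluripotency genes, Otx2 (2.12 against 11.4 CPM) and Zic2 (1.87 against 10.4 CPM) were lower and Sox3 (36.6 against 8.53 CPM) higher.

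Across cells ordered by two-cell share, from below 0.01% through limits of 0.05%, 0.2% and 0.5%, genes outside the rule differed in steps of unequal size. Gm21761 went from 102 CPM through 195, 1398 and 5884 to 13465. Nelfa went from 109 through 169, 830 and 1959 to 2639, so by ratio the step into the intermediate class was its largest, while for Gm21761 the intermediate and the first strong class both brought large steps. Dppa2 was at 144, 223, 341, 458 and 468 CPM, and GFP at 79.1, 161, 383, 469 and 537 CPM, with smaller steps between the 2 strong classes than before them. Duxf3 went from 0.495 through 1.75, 5.31 and 7.26 to 14.03 CPM. In the other direction Sox2 was at 659, 564, 291, 153 and 121 CPM, and Tet1 at 259, 228, 152, 95.8 and 67.6 CPM. Esrrb was lowest in the class from 0.2% to 0.5%, at 18.9 CPM, and at 23.2 above it, and Sall4 was highest in the intermediate class, at 288 CPM. The median UMIs per cell went from 33518 through 32057, 27687 and 20494 to 18090, and the median mitochondrial share from 2.37% to 3.42%. Depth and mitochondrial share therefore moved with these classes, and their part in the gene differences was not tested; with both groups limited to 10000 to 30000 UMIs the pluripotency median was -1.48 and the two-cell median 5.56.

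**Figure D5:**
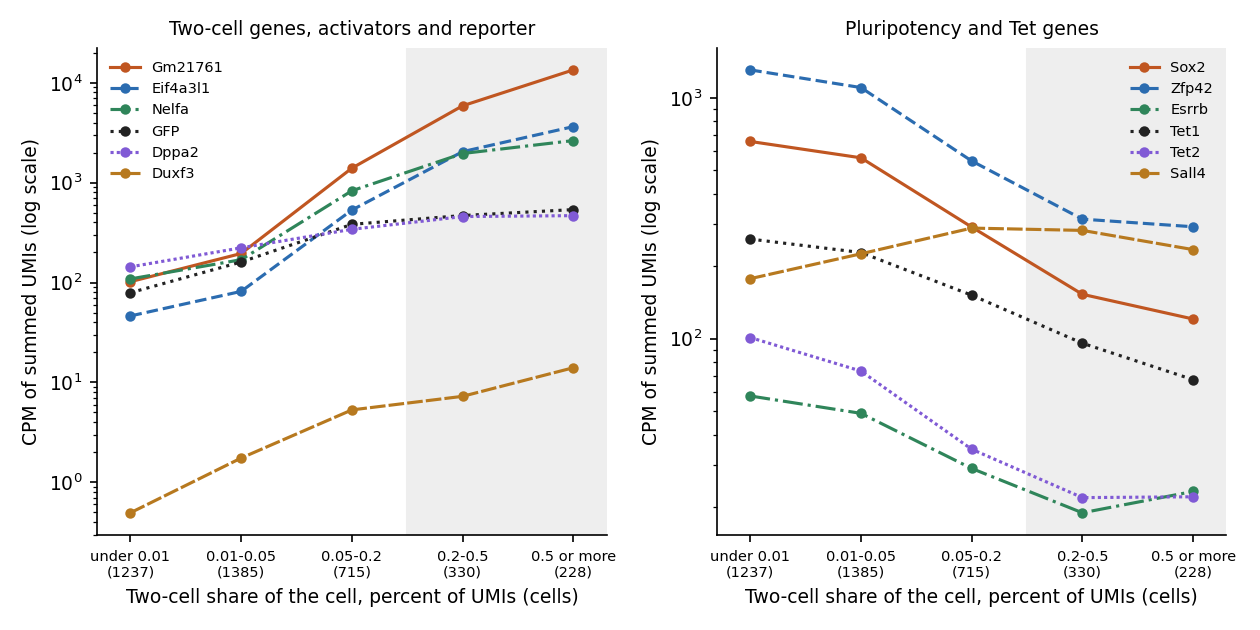
CPM of summed UMIs (log scale) in 5 classes of positive-library cells by two-cell share, with the number of cells in parentheses and the strong classes shaded. Gm21761, Eif4a3l1, Nelfa, GFP, Dppa2 and Duxf3 (left) are higher in each later class, and Sox2, Zfp42 and Tet1 (right) are lower in each later class. Sall4 peaks at 288 CPM in the intermediate class.

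The 56 cells that shared the two-cell threshold but exceeded the endoderm limit are the nearest comparison. Their rule genes were weighted differently: Zscan4a was at 146 CPM against 631 in the strong cells, Zscan4d at 460 against 787 and Usp17la at 123 against 505. Sp110 was at 968 against 468 and Usp17lc at 1071 against 487. Outside the rule, Gm5590 was at 6.03 CPM against 159 and Gm428 at 13.8 against 131, both picked after their values were seen. Zfp560 (3306 against 1370 CPM) and Platr31 (2566 against 1169 CPM) were higher in the 56 cells. Sox2 was lower still there, at 42.2 against 141 CPM, and Nanog was at 45.6 against 273 CPM. The whole pluripotency list took a higher median share of UMIs there, 1.10% against 0.849%. In strong cells most of that share came from Dppa5a, so it does not describe each gene of the list. GFP stood at 533 and 494 CPM. The median of detected genes at 10000 UMIs was 2720 against 3096. With 56 cells from the same library these differences carry no replicate error.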

How the data were processed

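Single-cell RNA was measured in 1 library per group. The deposited files give counts of each of 55415 features in each cell, unnormalized whole numbers in a sparse format. They are read here as UMIs, since each cell has a barcode; the labels do not state molecule counting, and their extraction text describes kits used for bulk RNA. The submitters' processing notes name FastQC 0.11.2, Trim Galore 0.6.4, STAR 2.7.6a and build mm10, with no cell calling given.

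Cells were selected by the rule above. UMIs were summed per group of cells and scaled to CPM, and log2 ratios use CPM + 1. The size rule needed 10 CPM in either group, 50 UMIs over both and a ratio of 4. Intervals are exact Poisson, exact binomial (Clopper-Pearson) or exact conditional (ratios), at 95%, and a count of 0 carries an upper limit of 3 counts. Shares of cells with a UMI used cells thinned to 10000 UMIs. No doublet caller was run. The members and gene lists were chosen with earlier results of these data known. Named genes are those of the rule, GFP, the 15 largest ratios in each direction with the same direction under every scaling, the 10 lowest of at least 100 CPM, and up to 4 members of each list; others are said to be chosen after their values were seen. GENCODE M21 placed 52133 features, and 223 of the 434 higher genes outside the rule matched a RefSeq promoter. The steps were tested on simulated data. Work used pandas 2.3.3, scipy 1.17.1, numpy 2.4.6 and matplotlib 3.10.9 in Python 3.11.15, and edgeR 4.0.16 in R 4.3.3 for TMM scaling only.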

Additional observations from a re-analysis of the deposited data

How the results depend on the processing

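Across 22 other settings no direction of a main result turned, and 813 of 814 values of the 37 named genes had the main direction, with Gm49089 against negative-library cells as the exception, and 745 were past a ratio of 4, which Utf1, Gm49089 and Txnl4a do not reach in the main setting either. Of the 660 list medians, 605 stayed within the interval of the main median over genes and 55 did not. The sign differed from the main value in 18, over 9 lists. By UMIs per cell these were the germline (-0.55), G2/M (-0.46), mitochondrially encoded (-0.17), p53 (-0.43), heat shock (-0.67) and immediate early (-0.57) lists. With no endoderm limit the endoderm median was -0.32, with 10000 to 30000 UMIs the p53 median was -0.12, and against the negative library the trophoblast median was 0.87. The other 9 were within 0.1 of 0. The number of strong cells was 918 at a two-cell share of 0.1%, 228 at 0.5%, 259 with at least 20000 UMIs and 340 without the Zscan4 family in the share. The log2 ratio of GFP, 2.63, became 2.52 and 2.75 at those shares, 2.497 with at least 20000 UMIs, 2.46 without the Zscan4 family, 8.49 against the negative library and 1.93 by UMIs per cell. The 451 higher genes became 941 at a ratio of 2 and otherwise ranged from 301 to 676. The 27 lower genes were the least stable count: 16 and 65 at shares of 0.1% and 0.5%, 51 with 10000 to 30000 UMIs, 110 against the negative library, 41 with CPM outside the rule's, ribosomal protein and mitochondrial genes, 51 with a pseudocount of 0.1, 628 at a ratio of 2 and 227 by UMIs per cell. The median of the two-cell list was 7.59 against the negative library and 6.07 at a share of 0.5%, and the pluripotency median was -2.09 by UMIs per cell. The UMIs-per-cell scale and the histone medians were chosen after seeing the data. No paired analysis was possible because there is only 1 library on either side. Depth limits the low genes, since the strong cells sum to 11790172 UMIs against 42423440 in comparison cells. Doublets remain; without cells above 2 times the library's median UMIs 556 strong cells, 455 higher and 30 lower genes were left.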
